A study of Mus musculus with 16 samples.

Results

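The comparison described here is that of PS (prenatal stress) female mice with CTRL female mice, by poly(A) RNA-seq of the amygdala at PN28. It uses 8 of the 16 libraries in the series, the PS females LM29, LM30, LM31 and LM32 and the CTRL females LM21, LM22, LM23 and LM24, and all genes with a mean above 0.5 CPM (a gene's value relative to the library's sum) in either group, which were 14236 of 17293. The animals were C57BL/6 offspring by the labels, and C57BL6/J in the study's methods. Dams of the PS group went through varied psychosocial stressors (chronic gestational stress) from G6.5 onwards through mid and late pregnancy, and dams of the CTRL group were left undisturbed. Each library came from 1 offspring, the 4 offspring of a group came from different litters, and no label ties a female to a male library, so no library was paired with another. LM29 lay far from the other PS females for a small set of genes, and results are therefore given with and without it.

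The amygdala is a group of nuclei in the temporal lobe that assigns emotional weight to stimuli and drives fear and stress responses. Its basolateral part is built mostly of glutamatergic projection neurons, and its central and intercalated parts mostly of GABAergic neurons. Noradrenaline reaches it through fibres of brainstem neurons, and corticosterone and corticotropin-releasing hormone act in it directly. The comparison asks which of its transcripts differed between female offspring of stressed and of undisturbed dams.

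The deposited values had been corrected for unwanted variation and summed to between 40918079 and 44275406 per female library. Values are listed below in the order LM21 to LM24 for CTRL and LM29 to LM32 for PS, as deposited. Groups are called separated where all 4 PS libraries lay beyond all 4 CTRL libraries after TMM scaling, which for a few close pairs differs from the order of the deposited CPM. Log2 differences are fitted log2 fold changes, PS minus CTRL. Xist, the RNA that silences 1 X chromosome, was present in the 8 female libraries, and the 4 Y-linked genes checked were at no more than 0.0933 CPM in each. Across the 8 libraries the first principal component held 34.5% of the variance. PS and CTRL females overlapped on it (mean difference 11.5, exact permutation test, two-sided, p = 0.257), and LM32 lay at one end with a score of 24.8. The groups also overlapped on the second component (19.8% of the variance, difference -5.18, exact permutation p = 0.486) and differed most on the third (16.5%, difference -11.8, exact permutation p = 0.0571), with Benjamini-Hochberg adjusted exact p of 0.386, 0.486 and 0.171 for the 3 components. The correction by the authors drew on all libraries, so libraries are not fully exchangeable and exact p-values are approximate.

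No gene passed the thresholds of the study in the test used here, which is not the test of the study. With limma on the corrected values, 0 of 14236 genes (0%) were DEGs (FDR below 0.05, more than 1.5-fold different), and the smallest adjusted p was 0.234. Without LM29 the count was again 0 (0%), with a smallest adjusted p of 0.121. The study itself, with edgeR, reported DEGs for this comparison, Dbh and Slc6a5 among them. It also measured higher Dbh in PS females by qPCR, where Slc6a5 showed a trend in the same direction that was not significant. At an unadjusted p under 0.05, 913 genes (6.41%) lay higher in PS females and 893 (6.27%) lower. Without LM29 the counts were 1106 (7.77%) and 1061 (7.45%), and 1602 genes met this mark with the same direction in both fits. The 4 PS libraries all lay above the 4 CTRL libraries for 495 genes (3.48%) and all below for 579 (4.07%). With only 3 PS libraries, for which separation is easier, these counts were 812 (5.7%) and 835 (5.87%). The differences were small, with a median size of 0.083 on the log2 scale against a median standard error of 0.085. A difference of more than 1.5-fold was fitted for 69 genes, 43 higher and 26 lower, and for 16 of them the groups did not overlap. Everything below therefore describes levels and directions of genes that did not pass the test over all genes.

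**Figure D1:**
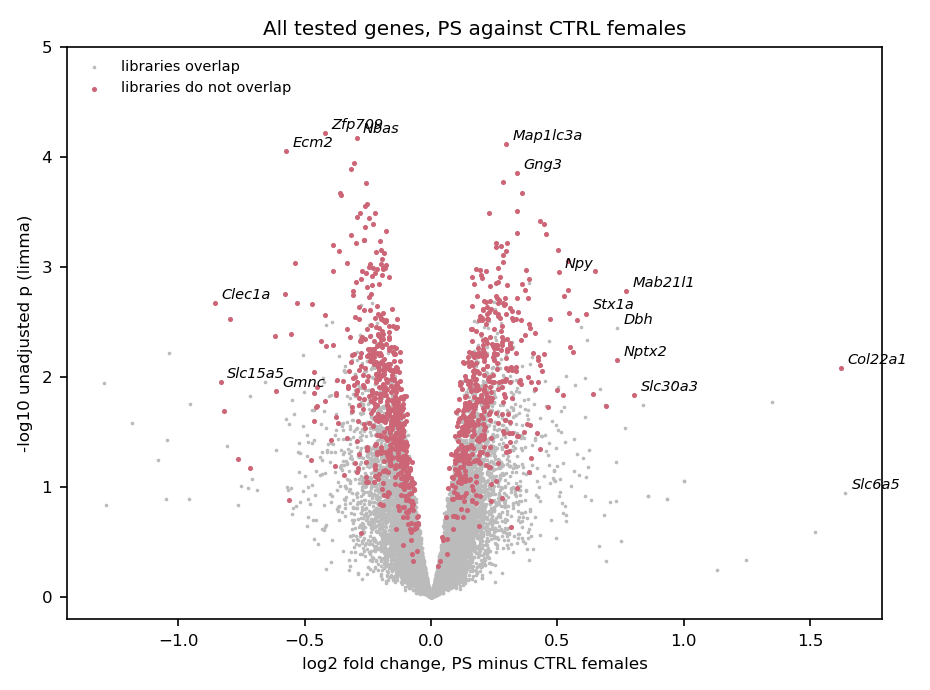
Fitted log2 difference (x axis, PS minus CTRL females) against the size of the unadjusted limma p (y axis, -log10) for the 14236 genes tested, with red points for the 1074 genes whose 4 PS and 4 CTRL libraries did not overlap. The genes with the smallest p-values have modest folds, and Slc6a5, with a large fold, has libraries that overlap.

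The genes with the smallest p-values that were higher in PS females mostly had short transcripts. Map1lc3a, which encodes the autophagosome protein LC3A and lies on chromosome 2 from 155276297 to 155278073 (mm10), had 69.4, 64.3, 59.8 and 64.1 CPM in CTRL and 78.8, 79.8, 76.7 and 76.8 CPM in PS females. The 4 PS values lay within a narrow band above the CTRL values, and the log2 difference was 0.30 (SE 0.054 and adjusted p = 0.234, limma). Gng3, a G protein gamma subunit of neurons, had 192, 162, 179 and 169 CPM in CTRL and 208, 215, 215 and 237 CPM in PS females, a log2 difference of 0.34 (SE 0.065). Hsbp1, a small protein that binds heat shock factor, had 205, 198, 203 and 200.3 CPM in CTRL and 239, 228, 241 and 262 CPM in PS females, a log2 difference of 0.28 (SE 0.056). The CTRL values of Hsbp1 were nearly equal, and its PS values lay above them with a wider spread, LM32 being highest. Ptn, the secreted growth factor pleiotrophin, had 64.6, 63.4, 56.7 and 67.5 CPM in CTRL and 77.1, 82, 82.9 and 77.2 CPM in PS females, a log2 difference of 0.36 (SE 0.072). Mea1 (log2 difference 0.34), the ubiquitin ligase gene Rnf5 (0.23), Gp1bb (0.43), which encodes a platelet glycoprotein subunit, and the selenoprotein gene Selenow (0.45) completed the 8 genes of smallest p in this direction. Their groups did not overlap, with or without LM29. Gp1bb overlaps Sept5 on the same strand, and its reads could not be told from those of the neighbour with certainty. The adjusted p of each of these 8 genes was 0.234 (limma), and without LM29 it lay between 0.121 (Map1lc3a) and 0.138 (Rnf5).

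Those that were lower in PS females were mostly long transcripts. Zfp709, a zinc finger gene, had 8.4, 8.06, 8.65 and 9.21 CPM in CTRL and 6.16, 6.02, 6.76 and 5.85 CPM in PS females, a log2 difference of -0.42 (SE 0.074 and adjusted p = 0.234, limma). Nbas, which takes part in transport between Golgi and endoplasmic reticulum, had 30.8, 33.6, 30.7 and 33.1 CPM in CTRL and 27.9, 25.8, 24.8 and 24.3 CPM in PS females, a log2 difference of -0.29 (SE 0.052). Leaving out LM29 gave Nbas the smallest p of all genes, with a log2 difference of -0.32 (limma adjusted p = 0.121). Ecm2, an extracellular matrix protein, had 5.69, 6.21, 5.55 and 8.06 CPM in CTRL and 3.84, 4.36, 3.56 and 4.36 CPM in PS females and the largest difference of this set, at -0.57 (SE 0.10). Arhgap5, a GTPase-activating protein, stood at 164, 175, 179.7 and 197 CPM in CTRL and 150.1, 139.8, 144 and 136 CPM in PS females. The mannosidase gene Manea (log2 difference -0.32), the Rab escort protein gene Chm on the X chromosome (-0.26), the zinc finger gene Gm14305 (-0.36) and Dpy19l4 (-0.36) made up the rest. For the 8 genes of this set the highest PS library lay below the lowest CTRL library, and each had an adjusted p of 0.234 (limma).

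Transcript length moved with these differences. The longest annotated transcripts of the 8 genes higher in PS females measured between 736 and 2558 bases (median 1223), those of the 8 lower genes between 1646 and 9323 (median 6184), and those of all 13913 tested genes with an annotated length had a median of 3484. Over all genes, the median log2 difference was 0.097 for the 544 genes under 1000 bases, 0.058 between 1000 and 2000, 0.018 between 2000 and 3000, -0.01 between 3000 and 5000, -0.05 between 5000 and 8000 and -0.074 for the 875 genes of 8000 bases or more. Among the shortest genes 17.3% were higher and 1.84% lower at an unadjusted p under 0.05, and among the longest 0.457% and 15.5%. Single libraries differed more than the groups did. Relative to the mean of the 8 libraries, the shortest genes lay at -0.20 in LM23 (CTRL) and at 0.118 in LM32 and 0.087 in LM30 (PS), and the longest at 0.137 in LM23 and at -0.067 in LM32 and -0.10 in LM30. Without LM23 the median difference was 0.04 for the shortest and -0.044 for the longest genes. In males, PS against CTRL, the same bins had 0.044 and -0.053. The part of transcript length in the differences of single genes was not tested.

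**Figure D2:**
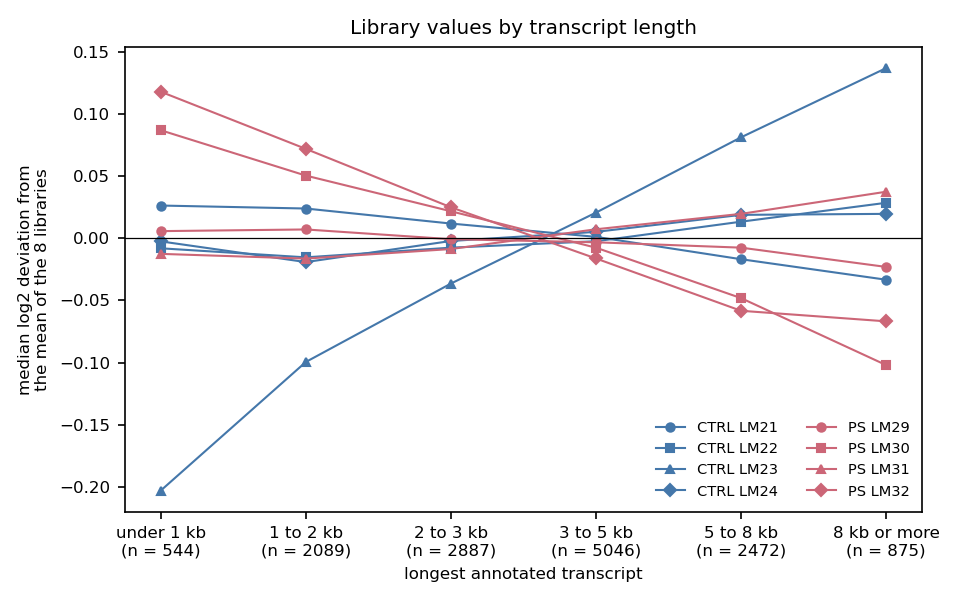
Median deviation of each library from the mean of the 8 female libraries (y axis, log2) for genes grouped by their longest annotated transcript (x axis), with CTRL libraries in blue and PS libraries in red. LM23 runs from -0.20 to 0.137 and LM30 and LM32 run the other way, while the remaining libraries stay closer to 0.

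The largest differences among genes with separated groups were of several kinds. Col22a1, a collagen of tissue junctions on chromosome 15 from 71795795 to 72034227, had 3.03, 3.63, 2.94 and 2.91 CPM in CTRL and 53.5, 5.4, 6.78 and 5.76 CPM in PS females, a log2 difference of 1.62 (SE 0.53 and adjusted p = 0.282, limma). LM29 stood far above the rest, and without it the other PS libraries were still separated from CTRL at a log2 difference of 0.87 (SE 0.17 and adjusted p = 0.121, limma). Slc30a3, the zinc transporter ZnT3 of glutamatergic synaptic vesicles, had 108, 90.9, 75 and 47.4 CPM in CTRL and 119, 114, 139.9 and 162 CPM in PS females, a log2 difference of 0.80 (SE 0.29). Its CTRL values spread widely, with LM24 lowest. Nptx2, a secreted pentraxin that gathers AMPA receptors, had 19.8, 21.6, 22.1 and 14.1 CPM in CTRL and 26, 30.5, 36.2 and 35 CPM in PS females, a log2 difference of 0.74 (SE 0.23). Stx1a, the plasma membrane SNARE protein syntaxin 1A, had 140.0, 118, 114 and 87.2 CPM in CTRL and 154, 150.1, 205 and 181 CPM in PS females, a log2 difference of 0.61 (SE 0.17). LM24 was lowest in CTRL for Slc30a3, Nptx2, Stx1a and Fam19a1 alike. Fam19a1, a secreted chemokine-like protein, had a log2 difference of 0.64, Mab21l1 one of 0.77 and the noncoding B230216N24Rik, which overlaps Pam on the same strand, one of 0.65. Mab21l1 lies within Nbea on the opposite strand, and the strand setting of the counting is not given in the sources used here.

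Of the separated genes that were lower, Clec1a, a C-type lectin receptor of endothelial cells, had 2.12, 3.58, 2.43 and 4.64 CPM in CTRL and 1.93, 1.9, 1.11 and 1.04 CPM in PS females, a log2 difference of -0.86 (SE 0.23 and adjusted p = 0.26, limma). Chrm5, the muscarinic acetylcholine receptor M5, had 9.03, 8.06, 8.32 and 13.9 CPM in CTRL and 7.19, 5.81, 4.04 and 4.13 CPM in PS females, a log2 difference of -0.82 (SE 0.31). Ide, the insulin-degrading enzyme, had 64.2, 77.9, 90.2 and 69.4 CPM in CTRL and 43.6, 61.2, 38 and 52 CPM in PS females, a log2 difference of -0.62 (SE 0.18). The Ide groups nearly touched, since LM30 lay just under the lowest CTRL library. The fucosyltransferase gene Sec1 (log2 difference -0.80) and the netrin gene Ntn5 (-0.77) overlap each other on opposite strands of chromosome 7 and may share reads. Slc15a5 (-0.83) and Aldoart1 (-0.72) were near the lower end of measured levels and passed the filter only through their CTRL mean. Gmnc (-0.62), a regulator of multiciliated cells, had 3.43, 5.03, 4.23 and 8.68 CPM in CTRL and 3.06, 2.96, 3.09 and 3.18 CPM in PS females. For Aldoart1 and Gmnc the highest CTRL value was that of LM24.

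**Figure D3:**
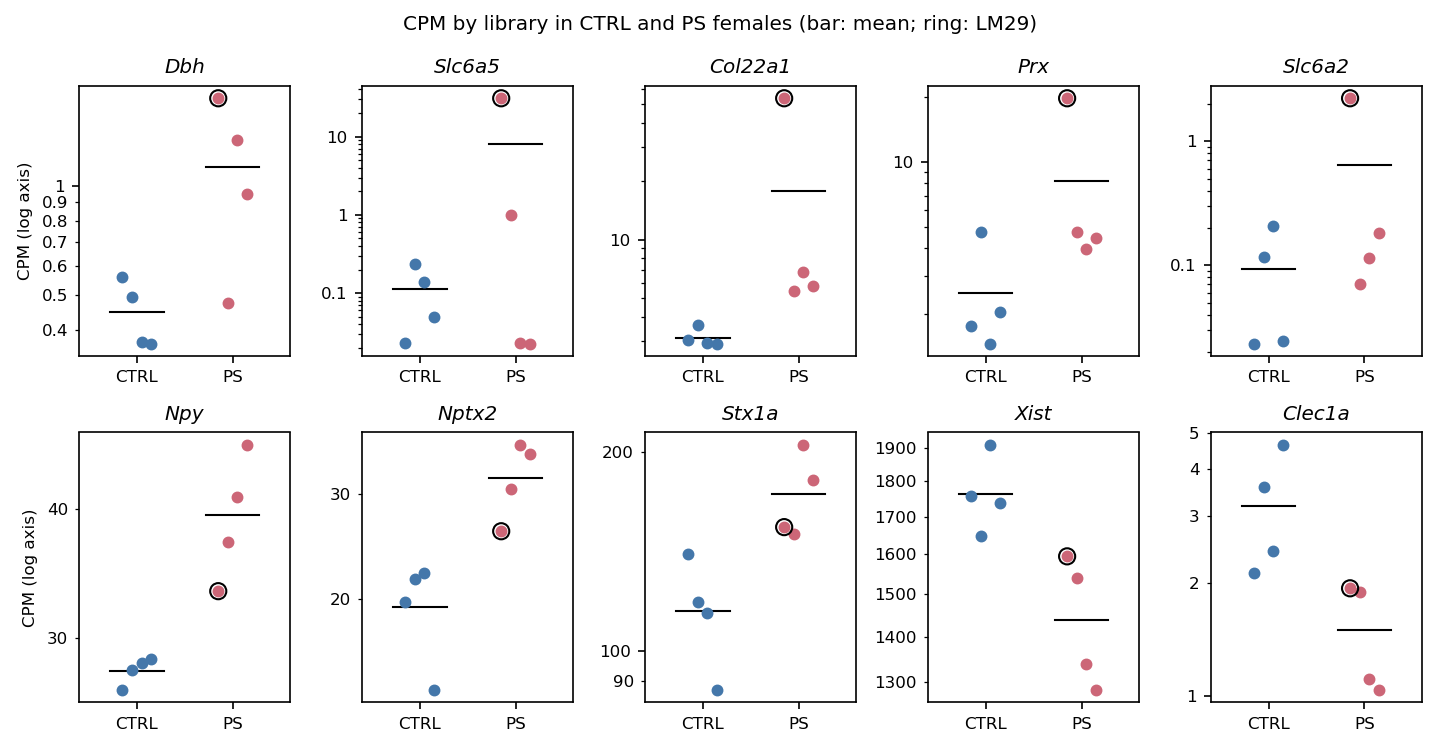
CPM on log axes of 10 genes in the 4 CTRL (blue) and 4 PS (red) female libraries, with a bar at the mean of each group and a ring around LM29. LM29 carries the PS mean of Slc6a5, Col22a1, Prx and Slc6a2. The groups of Col22a1, Npy, Nptx2, Stx1a, Xist and Clec1a are apart in all libraries.

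Dbh, dopamine beta-hydroxylase, turns dopamine into noradrenaline. It lies on chromosome 2 from 27165233 to 27183200 and had 0.56, 0.492, 0.37 and 0.367 CPM in CTRL and 1.74, 0.474, 1.34 and 0.949 CPM in PS females. LM29, LM31 and LM32 lay above all CTRL libraries and LM30 lay among them. The log2 difference was 0.74 (SE 0.21, unadjusted p = 0.00362, limma adjusted p = 0.264), and an exact permutation test over the 8 libraries, two-sided, gave p = 0.0857, where 0.0286 is the smallest it can give. Without LM29 the log2 difference was 0.57 (SE 0.19 and adjusted p = 0.22, limma). Dbh was chosen because it was named in earlier work on these samples, so its direction is not independent evidence. Th, which makes the precursor of dopamine, was below the level tested, at 0.0467, 0.234, 0.0462 and 0.171 CPM in CTRL and 0.0955, 0.166, 0.0681 and 0.0452 CPM in PS females, without the order seen for Dbh. Slc6a2, the noradrenaline transporter, stood at 2.22 CPM in LM29 and at no more than 0.208 CPM in the other 7 female libraries. Its log2 difference was 0.61 with LM29 and 0.08 without it. Slc18a2, which loads monoamines into vesicles, had a log2 difference of -0.20 and Ddc, aromatic amino acid decarboxylase, one of 0.045. For the cytochrome gene Cyb561 the log2 difference was 0.093. The differences of Slc18a2, Ddc and Cyb561 were smaller than their standard errors (0.30, 0.19 and 0.11). That of Slc6a2 had a standard error of 0.37 with LM29 and 0.14 without it. Of the 5 tested genes of noradrenaline synthesis, transport and their cofactors, 4 were positive and 1 (Dbh) was higher at an unadjusted p under 0.05. Dbh and Slc6a2 passed the filter of 0.5 CPM only through their PS mean, and Slc18a2 only through its CTRL mean. The filter thus favoured the signs they have. Th and Gch1, with lower means in PS females, were not tested, so no conclusion is drawn from this count. Over all genes tested 49.6% were positive, and 6.41% were higher and 6.27% lower at an unadjusted p under 0.05. The counts for each list below stand beside these shares.

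Among transporters that clear catecholamines, Slc22a3, a low-affinity monoamine transporter, had a log2 difference of 0.25 (SE 0.11) and stood at 0.397, 0.351, 0.462 and 0.318 CPM in CTRL and 0.478, 0.427, 0.726 and 0.542 CPM in PS females. Slc22a3 passed the filter only through its PS mean (0.543 CPM, against 0.382 CPM in CTRL). The adrenergic receptors went in both directions, with 5 of 8 positive. Adra1a had 12.8, 11.2, 14.4 and 16.1 CPM in CTRL and 11.1, 10.1, 11.1 and 10.1 CPM in PS females, a log2 difference of -0.31 (SE 0.12 and adjusted p = 0.332, limma). Adra2a, the inhibitory autoreceptor, had 30.1, 32.7, 29.2 and 32 CPM in CTRL and 45.5, 37.5, 34.7 and 29.9 CPM in PS females, with LM32 inside the CTRL range and a log2 difference of 0.25 (SE 0.13), or 0.16 (SE 0.12) without LM29, its highest library. Adra1d had a log2 difference of -0.47 with a standard error of 0.35, and Adrb3 one of 0.29. None of the adrenergic receptors had separated groups after scaling, although the deposited CPM of Adra1a was below the lowest CTRL value in each PS library by a small margin.

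Slc6a5 encodes GlyT2, which fills the terminals of glycinergic neurons with glycine, and lies on chromosome 7 from 49910146 to 49963856. It had 0.0233, 0.234, 0.139 and 0.0489 CPM in CTRL and 30.9, 0.996, 0.0227 and 0.0226 CPM in PS females, so that 1 library, LM29, held nearly all of it. LM30 came next, and LM31 and LM32 were at or below the lowest CTRL library. The log2 difference was 1.64 (SE 0.97 and adjusted p = 0.501, limma) and, without LM29, 0.29 (SE 0.42 and adjusted p = 0.77, limma). Slc6a5, too, was named in earlier work on these samples. Glra1, the glycine receptor subunit typical of hindbrain and spinal cord, was also highest in LM29, at 0.86 CPM against at most 0.142 CPM in the other females. Pax2, a transcription factor of inhibitory neurons of hindbrain and cord, had 0.573 CPM in LM29 and at most 0.158 CPM elsewhere. Hoxa2, Hoxa5, Hoxb2 and Hoxb3, which mark hindbrain and spinal cord, were above 0 in LM29 and LM30, at up to 0.308 CPM, and at 0 in the other 6 female libraries. Their part in the Slc6a5 level was not tested. The glycine receptor and transporter genes at higher levels in these libraries had smaller differences. Glrb, the receptor beta subunit, had a log2 difference of -0.091, Gphn, the gephyrin scaffold, one of -0.0077, Glra2 one of 0.051, Glra3 one of 0.078, the glial transporter gene Slc6a9 one of -0.049 (-0.21 without LM29) and the vesicular transporter gene Slc32a1 one of -0.096. Gldc, which breaks down glycine, had 47.5, 46.3, 45.2 and 47.9 CPM in CTRL and 42.2, 46.4, 42.7 and 44.2 CPM in PS females (-0.07, SE 0.093), separated by a small margin only after scaling, and Shmt1, which interconverts serine and glycine, had -0.23. Of the 13 glycine system genes tested, 3 were positive, 10 were negative and 0 had an unadjusted p under 0.05. Slc6a5, among the positive ones, passed the filter only through LM29.

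LM29 also stood apart from the other females in genes of peripheral nerve and blood. Prx, a Schwann cell myelin protein, had 1.75, 4.78, 1.46 and 2.03 CPM in CTRL and 19.7, 4.74, 3.99 and 4.45 CPM in PS females, and in LM30 to LM32 it lay inside the CTRL range. The log2 difference of Prx was 1.35 with LM29 and 0.85 without it. Hemoglobin genes followed the same pattern, with 1.7, 1.87, 4.69 and 1.56 CPM in CTRL and 18.3, 3.48, 4.27 and 1.9 CPM in PS females for Hba-a1. Hba-a2 had the same values as Hba-a1, Hbb-b1 as Hbb-bs and Hbb-b2 as Hbb-bt, so that each pair counts once. Hbb-bs stood at 42.6 CPM, Hbb-bt at 8.4 CPM and Alas2, the first enzyme of heme synthesis in red cells, at 2.48 CPM in LM29, and in CTRL LM23 was highest for the 3 of them. In the male libraries Hba-a1 ran from 5.15 to 19 CPM, Hbb-bs from 14.3 to 44.5, Hbb-bt from 2.52 to 8.58 and Alas2 from 0.668 to 2.51 CPM. For these genes LM29 lay inside the male range and the other females lay below it. For Prx, LM29 lay above the highest male library (13 CPM). The sum over 8 Schwann cell genes was 454.5 CPM in LM29, 166 to 258.7 CPM in the other PS females and 157 to 282 CPM in CTRL. The log2 difference of Hba-a1 was 1.00 with LM29 and 0.41 without it. The sum over 8 genes of neutrophils and red cells, with Hba-a1 and Hba-a2 counted once, was 72.7 CPM in LM29, 6.66 to 18.3 CPM in the other PS females and 6.98 to 18.5 CPM in CTRL. LM29 was the highest or lowest of the 8 libraries, with a gap of more than 1 on the log2 scale to the nearest library of its group, for 11 genes with distinct values. Other libraries had such genes as well, 18 in LM32 and 3 to 9 in each of the rest. The widest of all was that of the pituitary hormone prolactin, named here after its values were seen, since Prl stood at 478 CPM in LM21, 187 CPM in LM30 and 50.3 CPM in LM32 and at no more than 3.69 CPM in the other females. Pomc, another pituitary hormone gene, was highest in LM30 (20.9 CPM) and LM21 (12 CPM).

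Activity-dependent genes were mostly higher in PS females. Of 20 immediate early genes, 18 were positive, where 49.6% of all genes tested were, and 8 had an unadjusted p under 0.05, all higher, against 6.41% of all genes. Their median log2 difference was 0.33, and 0.28 without LM29. Egr4 had 9.05, 8.38, 12.9 and 8.87 CPM in CTRL and 16.5, 12.3, 18.6 and 12.1 CPM in PS females, a log2 difference of 0.59 (SE 0.17 and adjusted p = 0.264, limma). LM23 lay among the PS libraries for this gene. Egr2 had 0.42, 1.1, 1.29 and 0.538 CPM in CTRL and 3.13, 1.71, 2.7 and 0.971 CPM in PS females, a log2 difference of 0.96 (SE 0.33). Npas4, an activity-dependent transcription factor of neurons, had 1.89, 1.85, 2.8 and 2.05 CPM in CTRL and 3.46, 2.49, 2.7 and 3 CPM in PS females, a log2 difference of 0.39 (SE 0.12). Egr2 is also a transcription factor of Schwann cells, and it was highest in LM29, as was Prx. Without LM29 its log2 difference was 0.78 (SE 0.33), and the part of Schwann cell RNA in it was not tested. For Egr2 and Npas4 the groups overlapped by 1 or 2 libraries, LM32 being the lowest PS library for Egr2 and LM30 for Npas4. Nptx2, described above, was the only one of the 20 with separated groups, where 3.48% of all genes tested were separated and higher. The summed CPM of the list ran from 974 in LM32 to 1355 in LM31 among PS and from 959 in LM21 to 1252 in LM23 among CTRL females.

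The promoters of Egr4 and Npas4 are shown since both genes belong to the immediate early list, many of whose members are known to respond to the cAMP-responsive factor CREB, whose core motif is TGACG. The sequences (RefSeq, GRCm38.p6) run from 250 bases before to 50 after the start, written on the coding strand, with matches to the motif on either strand in capitals.
Egr4, chr6:85513540-85513839, minus strand: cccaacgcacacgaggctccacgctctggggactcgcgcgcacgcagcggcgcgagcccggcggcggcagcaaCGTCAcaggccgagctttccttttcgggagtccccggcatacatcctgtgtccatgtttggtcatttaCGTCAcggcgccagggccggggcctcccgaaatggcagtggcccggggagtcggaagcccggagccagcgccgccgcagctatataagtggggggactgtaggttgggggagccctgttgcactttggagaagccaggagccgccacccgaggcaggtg
Npas4, chr19:4989922-4990221, minus strand: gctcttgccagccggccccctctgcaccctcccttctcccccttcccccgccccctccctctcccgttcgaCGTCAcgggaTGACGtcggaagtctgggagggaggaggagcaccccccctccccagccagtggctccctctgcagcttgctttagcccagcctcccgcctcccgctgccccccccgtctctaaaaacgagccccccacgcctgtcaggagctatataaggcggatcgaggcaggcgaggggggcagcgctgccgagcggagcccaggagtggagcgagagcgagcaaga
Each holds 2 matches. Of the 20 immediate early genes 15 had a promoter in this table, and 13 of these held the motif in at least 1 annotated promoter, as did 23% of all 27025 genes with a promoter. A match of letters does not show a bound site.

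Of 21 genes of presynaptic release, 18 were positive, where 49.6% of all genes were, with a median log2 difference of 0.15 (0.17 without LM29), and 3 were higher at an unadjusted p under 0.05, against 6.41% of all genes. Vamp2, the vesicle SNARE protein, had 1165, 1051, 1131 and 993 CPM in CTRL and 1196, 1254, 1299 and 1324 CPM in PS females, a log2 difference of 0.25 (SE 0.077). The groups of Vamp2 did not overlap, as for Stx1a, its partner on the plasma membrane. Rims1, a scaffold of the active zone, had 158, 159.7, 171 and 140.1 CPM in CTRL and 173, 169, 237 and 212 CPM in PS females, with LM31 and LM32 above and the other PS libraries close to the CTRL range. Slc17a7, the vesicular glutamate transporter VGLUT1, had 2010.3, 2225, 2054 and 1557 CPM in CTRL and 2363, 2575, 3056 and 2392 CPM in PS females, a log2 difference of 0.43 (SE 0.19) with separated groups. Markers of basolateral projection neurons, among which Slc17a7 counts, summed to 3900.1 to 4881 CPM in PS and 3094 to 3843 CPM in CTRL females, without overlap. Most of that sum was Slc17a7. The other 12 markers summed to 1537 to 1825 CPM in PS and 1536 to 1706 CPM in CTRL females, which overlapped. Of the 13 markers 9 were positive and 4 negative, and Slc17a7 was the 1 with separated groups, where 3.48% of all genes tested were separated and higher. Since bulk tissue was sequenced, more cells of a type and more RNA per cell cannot be told apart. Of 12 auxiliary proteins of AMPA receptors, 9 were positive (median 0.16). Cacng3, a transmembrane AMPA receptor regulatory protein, had a log2 difference of 0.51 (SE 0.20), and Gsg1l, which slows AMPA receptor recovery, had 15.4, 12.3, 8.83 and 12 CPM in CTRL and 14.5, 16.2, 23.2 and 20.5 CPM in PS females (0.62, SE 0.18), where LM29 alone lay within the CTRL range. Of 10 genes of metabotropic glutamate receptors and their Homer scaffold proteins, 5 were positive and 5 negative, with a median of -0.034. Among them the receptor genes Grm5 (-0.17, SE 0.077) and Grm3 (-0.27, SE 0.098) were lower.

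Ion channel genes went in both directions, with medians near 0 for potassium channels (-0.016, 31 genes) and for calcium, sodium and HCN channels (-0.021, 23 genes). Kcnd2, an A-type potassium channel subunit, had 126, 114, 142 and 134 CPM in CTRL and 108, 108, 110.2 and 91.8 CPM in PS females, a log2 difference of -0.28 (SE 0.074). Its longest transcript has 5152 bases, in a bin whose median was negative. The inward rectifier gene Kcnj4 (0.29, SE 0.12) and the silent subunit gene Kcnv1 (0.34, SE 0.19) were higher on average, with overlapping groups.

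Peptide systems of interneurons and stress showed their clearest difference in Npy. Npy, neuropeptide Y, lies on chromosome 6 from 49822710 to 49829507 and had 26.7, 27.9, 28.3 and 28.6 CPM in CTRL and 33.3, 37.2, 41.1 and 46.2 CPM in PS females, a log2 difference of 0.51 (SE 0.12 and adjusted p = 0.234, limma). The CTRL values were close together and each PS library lay above them, and without LM29 the log2 difference was 0.59 (SE 0.12 and adjusted p = 0.121, limma). Sst, somatostatin, which Npy neurons often share, had 216, 218, 209.6 and 210.1 CPM in CTRL and 203, 228, 247 and 369 CPM in PS females, so that LM29 lay below the CTRL values, the other PS libraries above them and LM32 farthest. The longest transcripts of Npy (566 bases) and Sst (721 bases) fall in the shortest bin, whose median was positive (0.097). Lamp5, a marker of neurogliaform cells, had a log2 difference of 0.51 (SE 0.21), with LM29 highest at 72.9 CPM, and 0.33 (SE 0.19) without LM29. Of 17 interneuron markers 13 were positive, with a median of 0.12 (0.19 without LM29). By contrast, Gad1, the enzyme that makes most GABA, had 390.2, 486, 432 and 418 CPM in CTRL and 361, 335, 315 and 321 CPM in PS females, a log2 difference of -0.35 (SE 0.12) with separated groups. Crhbp, which binds corticotropin-releasing hormone, had 48.3, 45.6, 43.4 and 49.6 CPM in CTRL and 54.4, 49.1, 54.7 and 69.4 CPM in PS females, a log2 difference of 0.29 (SE 0.099). In CPM, LM30 lay just under LM24, the highest CTRL library, and after scaling the groups were separated. Crhr1, the main receptor of that hormone, had 3.99, 4.17, 4.18 and 3.35 CPM in CTRL and 4.66, 7.16, 4.65 and 4.56 CPM in PS females, a log2 difference of 0.38 (SE 0.15), LM30 being far above the rest. The hormone gene Crh itself was at about 2 CPM, with a log2 difference of 0.34 (SE 0.23) and overlapping groups. Of the 8 tested genes of the CRH and PACAP systems 7 were positive. Oxtr, the oxytocin receptor, had 22.3, 25.6, 29.7 and 19.3 CPM in CTRL and 34.4, 25.9, 33.1 and 34 CPM in PS females, a log2 difference of 0.42 (SE 0.23), and LM30 lay within the CTRL range.

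Corticosteroid receptors and response genes went in both directions. Nr3c1, the glucocorticoid receptor, had a log2 difference of -0.17 (SE 0.079), and Nr3c2, the mineralocorticoid receptor, one of -0.41 (SE 0.18). Nr3c2 had 217, 265, 236 and 254 CPM in CTRL and 196, 229, 153 and 152 CPM in PS females, so that LM31 and LM32 were lowest and LM30 lay among the CTRL values. Cdkn1a, a cell cycle inhibitor that corticosteroids raise, had a log2 difference of 0.38 (SE 0.15). The 17 genes of this list had 1 higher and 1 lower at an unadjusted p under 0.05, near the shares over all genes of 6.41% and 6.27%, and a median of 0.057. Among 16 clock genes, Ciart, a clock repressor, had 4.15, 3.63, 4.14 and 3.89 CPM in CTRL and 6.28, 5.38, 7.26 and 4.27 CPM in PS females with separated groups (0.50, SE 0.18), Cry2 had 0.17, Dbp 0.32 and Clock -0.16. The chaperone gene Dnajb1 had a log2 difference of 0.32 (SE 0.098). Subunits of oxidative phosphorylation, which have short transcripts, were positive for 18 of 23 genes with a median of 0.063, and ribosomal proteins for 20 of 26 with a median of 0.051. Cox8a (0.20) was separated in CPM and Ndufa4 (0.15) only after scaling, with LM23 lowest for both. Of 19 genes of cholesterol synthesis 17 were positive with LM29 and 13 without it, and the sum of the list was highest in LM29, at 1027 CPM.

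Markers of neighbouring regions and of non-neuronal cells also varied between libraries. Of 14 hippocampal markers 12 were negative, with a median log2 difference of -0.38 (-0.43 without LM29) and a sum of 1591 to 2185 CPM in PS and 2084 to 2655 CPM in CTRL females. Prox1, a transcription factor of dentate granule cells, had 44.1, 87.9, 75.4 and 83 CPM in CTRL and 57.9, 46.8, 27.1 and 21.4 CPM in PS females, a log2 difference of -0.96 (SE 0.35). C1ql2, another dentate gene, had 75.7, 131, 95.5 and 122 CPM in CTRL and 88.3, 84.3, 27.2 and 26.2 CPM in PS females, and Tdo2 10.4, 29.4, 13.5 and 24.8 CPM and 10.4, 12.6, 5.24 and 3.18 CPM. LM31 and LM32 were lowest for all 3, and LM21 was the lowest CTRL library for Prox1, C1ql2 and Tdo2. Meningeal markers were also lowest in LM31 (329 CPM in sum) and LM32 (256 CPM), against 479 to 976 CPM in CTRL females. Dcn, decorin, carried much of that sum, with 706, 848, 447 and 915 CPM in CTRL and 607, 631, 290.2 and 220.2 CPM in PS females. The part of these tissue markers in the differences of other genes was not tested. Oligodendrocyte genes depended on LM29. With it 10 of 14 were positive (median 0.082), and without it 0 of 14 were (median -0.22). The sum was 666 CPM in LM29, 124 to 386 CPM in the other PS females and 155 to 420 CPM in CTRL. Mbp, myelin basic protein, had 56.4, 159.7, 110.5 and 93 CPM in CTRL and 263, 141, 91 and 45.1 CPM in PS females, a log2 difference of 0.20 with LM29 and -0.20 without it. Drp2, a dystrophin-related protein of the Schwann cell list, was separated without resting on LM29, at 88.4, 90.7, 90.1 and 84.1 CPM in CTRL and 102, 94.7, 116 and 105 CPM in PS females. Astrocyte markers were negative for 10 of 12 genes (median -0.14, with LM32 lowest in sum at 3319 CPM), and microglial markers had a median of 0.059.

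**Figure D4:**
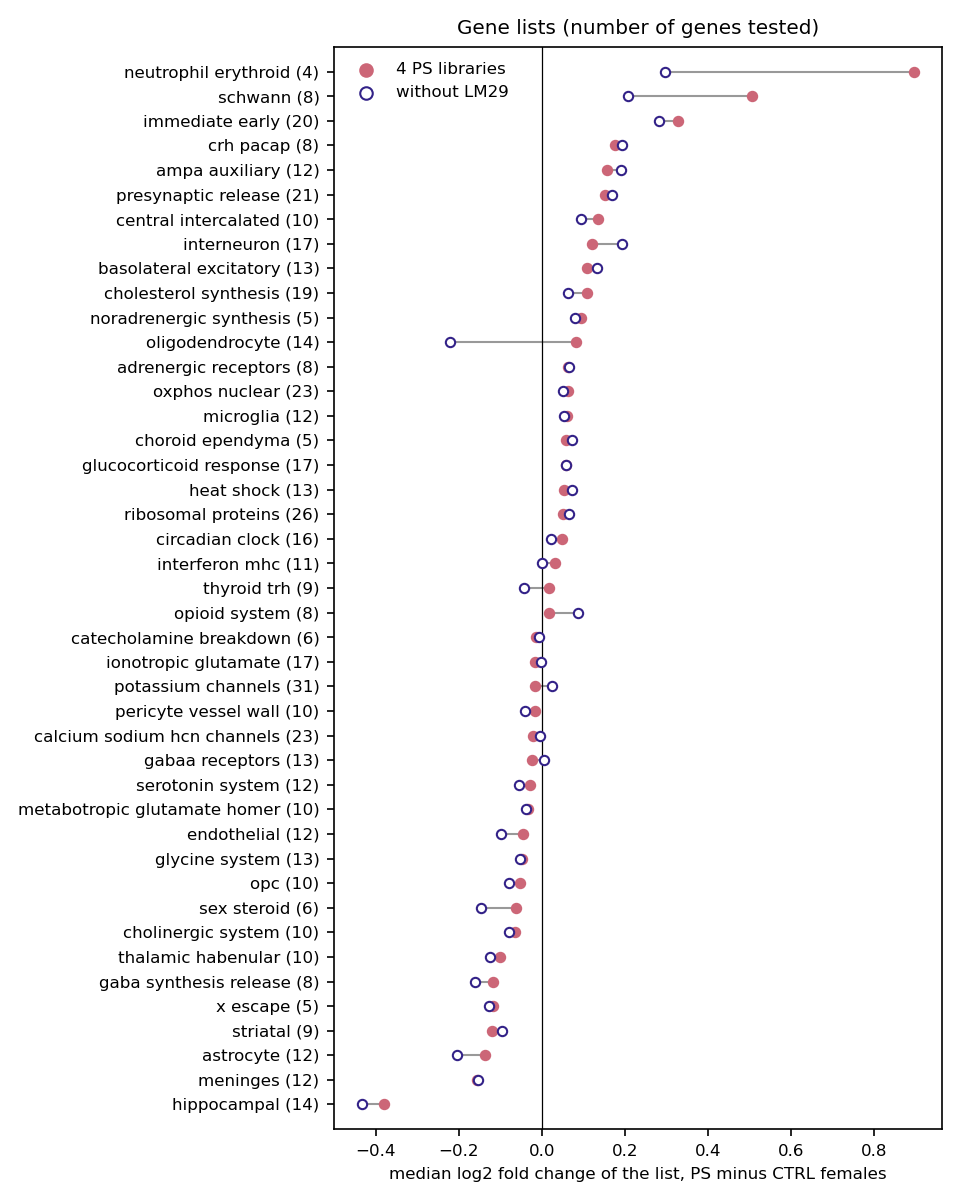
Median log2 difference of each gene list with 4 or more genes tested (x axis, PS minus CTRL females) with all 4 PS libraries (filled) and without LM29 (open), with the number of genes tested in brackets. Leaving out LM29 moves the blood cell, Schwann cell and oligodendrocyte lists most, the last from above to below 0, while the hippocampal list goes from -0.38 to -0.43 and the immediate early list from 0.33 to 0.28.

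Xist and 4 genes that escape X inactivation had small negative differences in PS females, and 4 of the 5 were separated. Xist, on chromosome X from 103460366 to 103483254, had 1758, 1648, 1909 and 1738 CPM in CTRL and 1594, 1539, 1338 and 1284 CPM in PS females, a log2 difference of -0.28 (SE 0.089 and adjusted p = 0.282, limma) with separated groups. Its transcript of 17946 bases falls in the longest bin, and Tsix, its antisense gene, overlaps it. Ddx3x, an RNA helicase, had 415, 397, 389.6 and 444 CPM in CTRL and 370.5, 391, 355 and 384 CPM in PS females, a log2 difference of -0.11 (SE 0.046). Eif2s3x, a translation initiation factor subunit, had 18.2, 17.4, 17.3 and 18.5 CPM in CTRL and 16.8, 16.3, 15.5 and 16.1 CPM in PS females (-0.12, SE 0.057), and Kdm6a, a histone demethylase, 44.3, 48, 45.4 and 49.8 CPM and 43.8, 38.1, 40.2 and 43 CPM (-0.16, SE 0.072). These 4 had separated groups, and Kdm5c, at -0.021, did not. The share of separated and lower genes among all tested was 4.07%. In PS against CTRL males, Ddx3x (0.08) and Eif2s3x (0.11) were positive and Kdm6a (-0.12) was negative.

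The PS effect in females was then set against that in males, whose 4 PS and 4 CTRL libraries come from other animals. Whether females and males of a treatment shared litters is not given in the sources used here. The libraries were fitted as independent, and what shared litters would do to the errors and the counts of this comparison was not tested. The difference of the effects was fitted for 14392 genes. It passed an FDR under 0.05 for 591 genes (4.11%) and, with a difference over 1.5-fold, for 231 (1.61%). Of the 230 of these tested in both sexes, 178 were higher in PS females and lower in PS males, and 52 the reverse. Choosing genes by this difference favours opposite signs. Dbh was among them, with a log2 difference of 0.74 in females and -0.54 in males (difference 1.27, SE 0.30, limma adjusted p = 0.0446). Oxtr differed by 1.37 (0.42 in females, -0.95 in males, limma adjusted p = 0.0446), Npy by 0.79 (0.51 and -0.28, limma adjusted p = 0.0438) and Stx1a by 1.01 (0.61 and -0.39, limma adjusted p = 0.0446). Adra2a (0.78) and Adrb3 (1.09) differed mainly through lower levels in PS males, at -0.52 and -0.80. Ecm2 was lower in PS females (-0.57) and higher in PS males (0.40), a difference of -0.97 (SE 0.15 and adjusted p = 0.0314, limma). Among genes picked for a small p in females, Map1lc3a and Nbas had male log2 differences near 0 (-0.04 and 0.024). Some others so picked did not, such as Gp1bb (-0.39 in males) and Ecm2. For all genes picked in this way the difference between the sexes is not independent of that choice. Of the genes described here, 30 passed an FDR under 0.05 for the difference. Leaving out LM24 (a CTRL female) kept 5 of these 30, leaving out LM20 (a CTRL male) 11 and leaving out LM31 15. The number was 7 with no filter on low values and 1 with no mean trend in the variances, while the sign was kept for all 30 in each of these 5 settings.

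**Figure D5:**
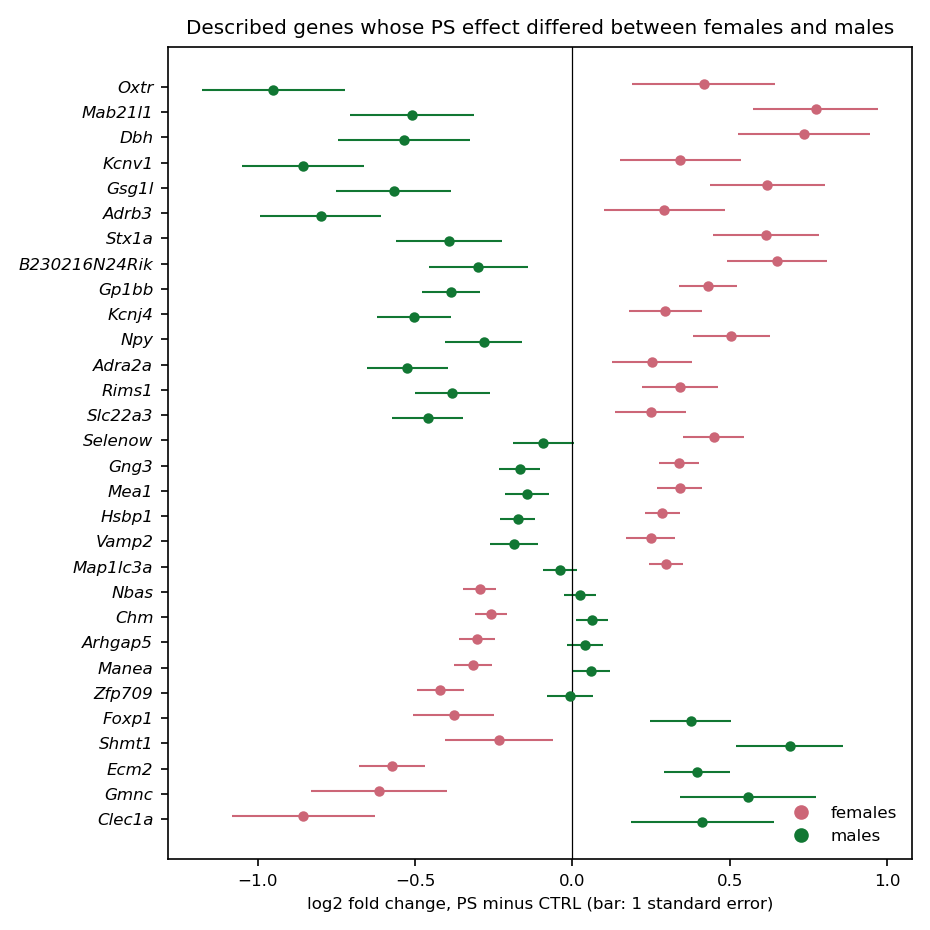
Log2 fold change of PS against CTRL (x axis, with bars of 1 standard error) in females (red) and males (green) for the 30 genes described in the text whose PS effect differed between the sexes at an FDR under 0.05. The points of the sexes lie on opposite sides of 0 for 29 genes and on the same side for Zfp709, from a difference of 1.37 (Oxtr) to -1.27 (Clec1a).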

How the data were processed

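Amygdala RNA of 16 mice was sequenced as directional poly(A) libraries with single reads. Reads were mapped to mm10 with STAR and counted per gene with featureCounts, corrected with RUVs and tested with edgeR by the authors. Versions and the strand setting of the counting are not given in the sources used here. The deposited table holds a corrected whole-number score per gene and library, as well as CPM, which equals that score over its library sum and was also made by the authors. Its columns of the authors' own fold changes and p-values were not used. The scores vary within groups in 10 of 12 directions only, so they are not read counts, no count model was applied, and no counting interval is given.

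CPM was scaled with TMM factors (0.95 to 1.047), 0.5 was added, and log2 values of the 16 libraries were fitted with 1 mean per group in limma 3.58.1 (R 4.3.3), with the 2 removed directions kept in the model (10 residual degrees of freedom). Fold changes are on the log2(CPM + 0.5) scale, which understates low genes. Genes with a mean CPM over 0.5 in PS or CTRL females were tested, and the same genes were tested without LM29. DEGs were genes with a Benjamini-Hochberg FDR below 0.05 that differed more than 1.5-fold. The difference between females and males was an interaction contrast. Separation of groups was judged on the scaled values. Genes named were Dbh and Slc6a5, the 8 of smallest p and the 8 of largest fold among separated genes per direction, the 12 of widest LM29 gap, all members of 4 short lists and up to 4 of smallest p per other list. Some genes that this rule takes in are not reported here. Kdm5c, Prl and Pomc were added after their values were seen. The members and lists were chosen with earlier results of these data known. Lengths and positions come from GENCODE (vM21, mm10). The fit was tested on simulated data. Alternatives were other scaling, pseudocounts, filters, priors, the female libraries alone and leaving out each library. Replicates are separate animals.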

Additional observations from a re-analysis of the deposited data

Results flagged for a closer look

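In 21 of 200 groups of 4 libraries checked, the outermost library lay farther from the rest than Dixon's 95% critical value allows, where chance flags about 1 in 20 groups of genes not chosen for such a gap. LM29 was that library in 7 of the 10 PS groups, at 30.9 CPM for Slc6a5, 2.22 for Slc6a2, 53.5 for Col22a1, 19.7 for Prx, 18.3 for Hba-a1, 8.4 for Hbb-bt and 2.48 for Alas2. These 7 genes were among those picked for the widest LM29 gap, so the check was settled by that choice. The other 3 were LM30 for Crhr1 (7.16 CPM) and Oxtr (25.9 CPM) and LM32 for Kcnd2 (91.8 CPM). Among CTRL females LM23 stood apart for Hba-a1 (4.69 CPM), Hbb-bs (11.1), Hbb-bt (2.01), Alas2 (0.647), Egr4 (12.9) and Cox8a (120 CPM), LM22 for Ntn5 (75.8), LM24 for Chrm5 (13.9) and Foxp1 (142 CPM), and LM21 for Prl (478) and Pomc (12 CPM).

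The PS effect in females minus that in males passed an FDR under 0.05 (limma) for 30 of the 100 genes described, and for 5 further genes of the naming rule that are not described. On the log2 scale, the female effect was higher for Oxtr (1.37), Mab21l1 (1.28), Dbh (1.27), Kcnv1 (1.2), Gsg1l (1.19), Adrb3 (1.09), Stx1a (1.01), B230216N24Rik (0.949), Gp1bb (0.816), Kcnj4 (0.799), Npy (0.788), Adra2a (0.777), Rims1 (0.723), Slc22a3 (0.708), Selenow (0.541), Gng3 (0.506), Mea1 (0.486), Hsbp1 (0.459), Vamp2 (0.433) and Map1lc3a (0.338). It was lower for Nbas (-0.318), Chm (-0.32), Arhgap5 (-0.344), Manea (-0.376), Zfp709 (-0.411), Foxp1 (-0.753), Shmt1 (-0.924), Ecm2 (-0.969), Gmnc (-1.17) and Clec1a (-1.27).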

How the results depend on the processing

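No paired analysis was possible because the replicate labels are unique to each library. The number of DEGs was 0 in the 17 alternatives tried. The number of genes at an unadjusted p under 0.05 stayed within 1.5 times the main value of 1806, at 1278 (without LM24) to 2498 (without LM21) with 1 library left out. The number without overlap, 1074, was 1282 to 2264 with 1 library left out, where fewer libraries separate more easily. The first component kept its direction in 12 alternatives (exact permutation p = 0.0857 to 0.629). The number of genes whose PS effect differed between females and males, 231, was 80 with no filter, 481 with the removed directions not kept, 9 with no mean trend in the variance prior, and 61 to 562 with 1 library left out (61 without LM24, 81 without LM20, 85 without LM31 and 562 without LM30). These settings for the difference were chosen after seeing the data. Of 1683 alternative values for the 100 genes described, 19 changed sign, all in 10 genes and with 1 library left out. Their ranges were -0.047 to 0.13 for Ddc, -0.20 to 0.63 for Mbp, -0.21 to 0.060 for Slc6a9, -0.058 to 0.18 for Glra2, -0.17 to 0.27 for Glra3, -0.029 to 0.021 for Gphn, -0.17 to 0.0020 for Slc32a1, -0.065 to 0.020 for Kdm5c, -0.20 to 3.30 for Prl and -0.19 to 1.56 for Pomc. The cause was not tested. Precision is set by 4 animals per group.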
